A study of Mus musculus with 8 samples.

Results

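The cells described here are the myoepithelial cells of the lactating mouse mammary gland. They are the cells that the deposited annotation placed in subcluster C14 and marked as passing all quality filters, in the libraries of 2 lactating mice, L1 and L2. C14 held 4637 cells in L1 and 3104 in L2, together 7741 of the 25009 cells of the series, and only 3 further C14 cells lay in other libraries. The series profiled single mammary cells of C57BL/6N mice with droplet-based single-cell RNA-seq, in which each mRNA molecule is counted by a unique molecular identifier (UMI). Cells were sorted as positive for the epithelial surface protein EpCAM after CD31, CD45 and Ter119 cells had been gated out. The animals were nulliparous (NP, 8 weeks old), pregnant (G, at day 14.5), lactating (L, at day 6) or post-involution (PI, sampled 11 days after their pups were naturally weaned), with 2 mice a stage and 1 library a mouse. Each p-value below therefore rests on 2 mice a stage.

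Myoepithelial cells are epithelial cells with the contractile apparatus of smooth muscle. They surround the milk-producing alveoli and the ducts, and when oxytocin from the pituitary reaches its receptor on them, calcium rises, myosin light chain kinase phosphorylates the myosin light chain and the cells contract, which moves milk towards the nipple. They also rest on and help build the basement membrane, and they carry the basal keratins of the outer epithelial layer.

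C14 made up 80.8% of the cells of L1 (4637 of 5736, Clopper-Pearson 95% interval 79.8–81.9) and 86.6% of L2 (3104 of 3583, 85.5–87.7). These intervals, like all intervals given for shares of cells, cover counting error only. The sort, and how cells of different size survive it, can set such a share, so it is no measure of the make-up of the gland. The secretory alveolar cells were few in the same libraries, with 42 and 47 cells in C9, the differentiated alveolar cluster, and 142 and 89 in C11, the cluster with progenitor features. The median C14 cell held 3701 UMIs and 1471 detected genes in L1 and 4148 UMIs and 1606 genes in L2. C14 cells were shallower than C11 cells (medians 6691 and 8065 UMIs) and C9 cells (11602 and 16271 UMIs). Levels are given throughout as UMIs per 1000000 UMIs (CPM) in the summed cells of a cluster and mouse, L1 before L2, so that cells of different depth can be set side by side. The assay counts the 3′ end of each molecule, so these levels need no correction for gene length. The 2 mice gave closely similar C14 profiles: over 12854 genes the levels correlated with Pearson's r = 0.987 and Spearman's rho = 0.988 across genes, which are not independent replicates, and the median gene differed by 0.13 on the log2 scale. Of 5420 genes at 20 CPM or more, 21 were at least 2-fold higher in L1, among them the pericyte gene Rgs5 (76.2 against 14.9) and the fatty acid carrier Fabp4 (262 against 76.2), and 10 were at least 2-fold higher in L2, among them the milk mucin Glycam1 (21.5 against 82.5).

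The label fitted the markers. Acta2, the smooth muscle actin (GRCm38 chr19:34241090-34255590, minus strand), was the most abundant gene of the contractile apparatus, at 26577 and 22787 CPM. Mylk, the myosin light chain kinase (chr16:34745210-35002420, plus strand), reached 6740 and 5657. Oxtr, the oxytocin receptor (chr6:112473683-112489943, minus strand), reached 743 and 672. The kinase and the receptor that act on the actin-myosin apparatus were thus present beside it in both mice. The basal keratins Krt14 (chr11:100203162-100207548, minus strand) and Krt15 (chr11:100131758-100135928, minus strand) stood at 4878 and 5442 and at 1640 and 1515. The luminal keratin Krt18 stood at only 208 and 184.

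To compare how many cells held a marker at equal depth, each cell was thinned to 1000 UMIs. Acta2 was then found in 99.8% and 99.9% of C14 cells, Mylk in 98.3% and 98.5%, and Krt14 in 97.6% and 97.3%. Those 3 genes marked nearly every cell. Oxtr was found in 48.3% of C14 cells in L1 (46.8–49.7) and 43.3% in L2 (41.6–45.1), against 4.23% and 3.85% of the cells of C18, the fibroblast-marked cluster of the same libraries, which should lack it. Unthinned, at medians of 3701 and 4148 UMIs, Oxtr was found in 84.3% and 84.5% of C14 cells, and in 12.3% and 13.5% of C18 cells at medians of 4044 and 4015 UMIs. Krt15 was found in 67.3% and 63.9% of the thinned C14 cells. Acta2 itself was found in 62.7% and 46.2% of the thinned C18 cells, so a UMI of Acta2 in a cell of these libraries does not by itself mark that cell, while its level does.

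Genes of the contractile apparatus were among the most abundant of these cells. After the nuclear RNA Malat1 (36965 and 38453), the 20 most abundant genes held the metallothionein Mt1 (26121 and 29582), Acta2, the tropomyosins Tpm2 (14715 and 12599) and Tpm1 (6824 and 6376), and the actin-binding proteins Tagln (10995 and 9237), Cald1 (6503 and 6160) and Cnn1 (5216 and 4565). Mt2, another metallothionein, reached 8513 and 9913, and the chemokine Cxcl14, the most abundant secreted factor of the lists examined, 9608 and 8459. The immediate early gene Fos, which cell dissociation can induce, was among them at 8879 and 6663. A list of contraction genes summed to 107522 and 94273 CPM, 10.8% and 9.43% of all UMIs of these cells.

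The same contraction list summed to 16687 and 13872 in C11 and to 6909 and 3632 in C9. At 2-fold or more in both mice, 1188 of 5700 genes were higher in C14 than in C11 (20.8%) and 643 were lower (11.3%). Against C9, 2641 of 5333 genes were higher (49.5%) and 318 lower (5.96%). The median gene was 1.18 and 1.30 higher in C14 than in C9 on the log2 scale, against 0.24 and 0.17 for C11. With milk protein genes left out of the totals, 1437 genes were higher and 838 lower than in C9, and with TMM scaling, which sets the bulk of genes level, 1324 were higher and 758 lower. The clusters were drawn from these same genes, so all differences between clusters are descriptions and were given no test.

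Of 31 contraction genes that reached the minimum level, 30 were at least 2-fold higher in C14 than in C11 and 31 in C14 than in C9, with medians of 2.52 and 2.67 on the log2 scale over C11 and 3.83 and 4.66 over C9. Acta2 was 7.26- and 9.34-fold, Mylk 7.73- and 9.24-fold, and Oxtr 5.39- and 6.80-fold above C11. The exception among the contraction genes was Ppp1cb, the catalytic subunit of myosin phosphatase, with 583 and 497 in C14 and 440 and 504 in C11. Genes of oxytocin and calcium signalling were more mixed. Of 24, 12 were higher and 3 lower than in C11, and 17 higher and 2 lower than in C9. Among the lower genes were 2 that move calcium across the plasma membrane: the store-operated channel Orai1 (19.8 and 17.2, against 204 and 138 in C11) and the calcium pump Atp2b1 (135 and 155, against 458 and 683 in C11).

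Some of the contraction genes are classical targets of serum response factor, which binds the CArG box. The strict CArG box was searched on both strands in the 250 bases before each RefSeq start of each gene (GRCm38.p6). Of the 29 contraction genes with a promoter there, 3 held it (10.3%), against 439 of all 27025 genes (1.62%). These sites are shown because they are the only matches among the contraction genes searched, with the CArG box in capitals and 10 flanking bases on each side, 5′ to 3′ on the strand of the gene. They lay in the myosin light chains Myl9 (chr2:156775293-156775322, plus strand) and Myl6 (chr10:128493040-128493069, minus strand) and in vinculin, Vcl (chr14:20929161-20929190, plus strand), a linker of actin to cell adhesions.
Myl9: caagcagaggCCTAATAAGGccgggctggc
Myl6: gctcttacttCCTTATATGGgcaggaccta
Vcl: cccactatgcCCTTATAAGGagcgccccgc
The boxes lay 161 to 152, 50 to 41 and 227 to 218 bases before the start, respectively. None of 27 oxytocin and calcium signalling genes held the strict letters in this window. Among the other lists they were found for 2 of 8 regulators and targets of serum response factor and YAP. They were also found for 1 of 11 basal transcription factors, 1 of 13 adhesion, 1 of 16 cell division and 1 of 17 dissociation stress genes. The keratin, matrix, ligand, receptor, milk protein and luminal lists held none, like those of other cell types. A match describes the letters only and is no measurement of binding.

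Basal and luminal keratins differed in opposite directions between C14 and C11. Of 8 keratins, 4 were higher and 2 lower in C14, and of 12 luminal markers 1 was higher and 9 lower. Of 15 basal transcription factors, 6 were higher and 3 lower, with medians of 0.30 and 0.25 on the log2 scale, close to those of all genes. Krt14 was 5.73- and 7.08-fold and Krt15 5.25- and 7.91-fold above C11, whereas Krt18 reached 2302 and 4167 in C11. Trp63, the master factor of basal epithelium, stood at 146 and 154 in C14, 18.5 and 21.2 in C11 and 8.73 and 5.39 in C9. Elf5, the factor of alveolar differentiation, ran the other way, at 4.69 and 3.37 in C14 against 727 and 637 in C11. Epcam, the antigen of the sort, was itself low in C14, at 133 and 162 against 1806 and 2598 in C11. The luminal enzyme gene Aldh1a3 was at 2.03 and 2.11 in C14 and at 586 and 967 in C11, and lactotransferrin, Ltf, at 40.7 and 39.4 against 13188 and 15636.

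Many matrix and paracrine genes were higher in C14 than in C11. Of 25 matrix genes, 22 were higher and 1 lower than in C11, and of 16 genes of adhesion to the basement membrane and neighbouring cells, 11 were higher and 2 lower. Examples were the collagen-binding glycoprotein Sparc (3240 and 3024 against 474 and 355), and Dst (728 and 839 against 115 and 126) and Col17a1 (240 and 265 against 37.9 and 30.6), both parts of the hemidesmosome. Of 30 ligands and binding proteins, 17 were higher and 4 lower, among them the ErbB ligand Nrg1 (406 and 397 against 72.2 and 52.9) and Wnt6 (128 and 136 against 18.5 and 12.9). Igfbp5, a binding protein of insulin-like growth factors, was on the other side, at 275 and 207 in C14 and 1244 and 1218 in C11. The receptor Lifr, for leukaemia inhibitory factor, was at 174 and 157 in C14 and 26.8 and 31.7 in C11. Among the genes with the smallest C11 and C9 level relative to C14 were Mrvi1, the IP3-receptor-associated substrate of cyclic GMP-dependent kinase (90.6 and 73.2 against 7.40 and 3.53 in C11), the intermediate filament protein gene Synm (1010 and 928 against 24.5 and 16.2 in C9) and Nav2 (136 and 202 against 1.75 and 2.70 in C9).

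C15, the other cluster of these libraries that the annotation places in the basal compartment, differed from C14 less in Acta2 and Mylk than in the basal keratins and Oxtr. Acta2 was 3.60- and 2.68-fold and Mylk 3.52- and 2.67-fold higher in C14 than in C15, while Krt14 was 16.5- and 19.7-fold, Krt15 16.3- and 21.3-fold and Oxtr 17.1- and 16.8-fold higher. C15 held the pericyte marker Rgs5 at 4288 and 3560 and the muscle filament gene Des at 815 and 921. The immune-marked cluster C17 of L1 held as much Acta2 (7553) and Mylk (2086) as C15 did (7376 and 1913), but in L2 C17 held less (1772 and 426, against 8512 and 2118 in C15). Markers of other cell types were low in C14 as summed lists, at 269 and 155 CPM for pericytes, 825 and 628 for fibroblasts, 93.0 and 39.4 for endothelial cells and 182 and 154 for immune cells (Cd3e was at 0 in both mice). The clusters that held these lists at their highest were far above, with fibroblast genes at 34498 and 34294 in C18, endothelial genes at 6725 and 6495 in C19, and immune genes at 45316 and 63846 in C17.

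Milk protein transcripts were found in C14 as in every cluster of the lactating libraries, and Csn1s2b was highest there relative to C9. Taking the level in C9 of the same mouse as 100%, Csn2, the beta-casein, stood in C14 at 0.343% and 0.401%, Csn1s2a, an alpha-S2-casein, at 0.220% and 0.278%, and Wap, the whey acidic protein, at 0.352% and 0.385%. Csn1s2b, another alpha-S2-casein (chr5:87808082-87824426, plus strand), stood at 1.84% and 3.32%. Its level was 513 and 679 CPM in C14. This was above the 426 and 153 of C11, a secretory cluster in which Csn2 reached 26.5% and 25.4% of its level in C9. It was also 2.08- and 4.98-fold the highest level among the non-secretory clusters C15, C17, C18 and C19, whereas Csn2 was 0.873- and 1.43-fold, Csn3 0.872- and 1.71-fold and Wap 1.39- and 2.15-fold the highest of those. Wap was 1.34-fold its level in C11 in L1 and 0.576-fold in L2. Within each mouse Csn1s2b had the largest of these ratios, and its value was larger in L2. Csn1s2b and Csn1s2a are neighbouring paralogs, and a split of reads between them in the counting would move both values. In cells thinned to 1000 UMIs, Csn1s2b was found in 36.7% (35.3–38.1) and 39.4% (37.7–41.2) of C14 cells, Csn2 in 26.6% and 26.1% and Wap in 27.8% and 30.1%. The UMIs were spread over many cells, with the top 1% of cells holding 9.19% and 11.6% of them. Cells holding 3 or more UMIs of markers of other cell types had less Csn1s2b than the rest (444 against 527 and 582 against 699). Across single thinned cells Csn1s2b correlated weakly with Wap (Pearson's r = 0.161 and 0.157), a value from sparse counts that share library and depth. Csn1s2b was picked out after the values had been seen.

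**Figure D1:**
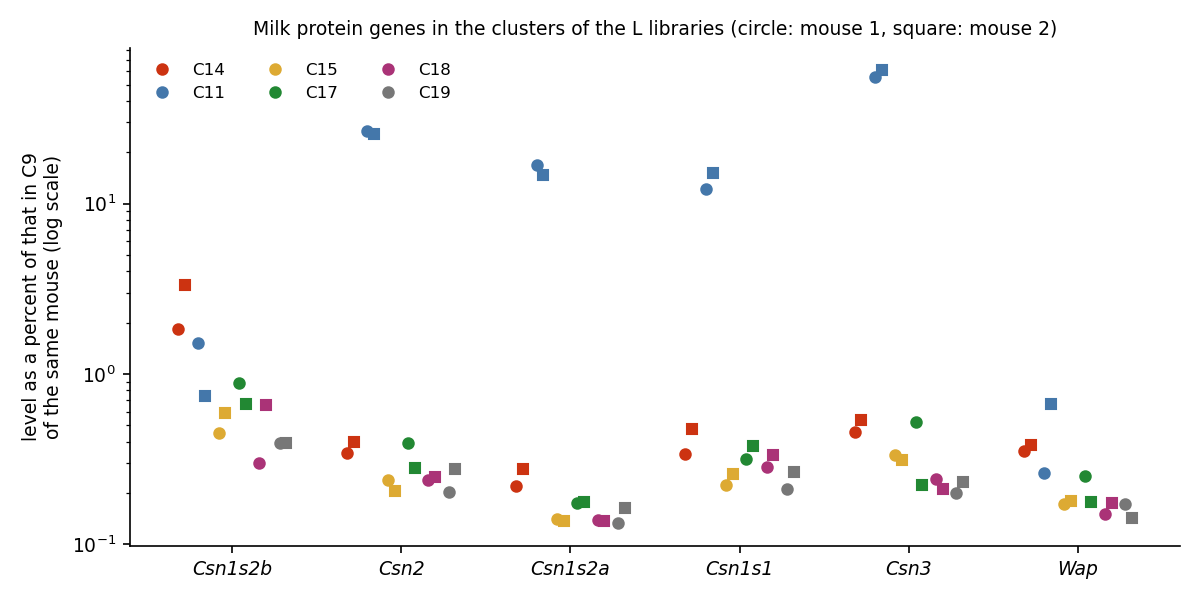
Levels of 6 milk protein genes in lactation clusters as a percent of the level in C9 of the same mouse (y axis, log scale), with a circle for mouse L1, a square for L2 and a colour for each cluster. For Csn2, Csn1s2a, Csn1s1, Csn3 and Wap, C14 lies between 0.220% and 0.536%, below C17 in L1 for Csn2 and Csn3 and otherwise above C15, C17, C18 and C19, and for Csn1s2b it lies above all other clusters drawn, at 1.84% and 3.32%.

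Lep, the leptin gene (chr6:29060220-29073877, plus strand), a hormone otherwise known from fat cells, was found at 81.4 and 85.0 CPM in C14. It was lower in C11 (11.1 and 4.70), C9 (14 and 4.04) and C15 (6.21 and 4.45), and reached 31.1 and 5.59 in C17, where Oxtr, at 247 and 63.7, and Krt14, at 1333 and 636, were likewise higher in L1. At least 1 UMI of Lep was found in 25.4% and 28.7% of C14 cells, against 2.82% of C18 cells in L1 and 0 of 52 C18 cells in L2, which allows a share of cells with a UMI of up to 5.77%. Of other genes known from fat cells, Adipoq had 1 and 2 UMIs, Plin1 2 and 6, Cfd 2 and 0 and Cidec none in all C14 cells, while the lipid droplet gene Plin4 had 865 and 540 UMIs (40.9 and 32.5 CPM, against 35.7 and 53.4 in C15 and 5.55 and 3.53 in C11). Fabp4, also a gene of capillary endothelium, had 5531 and 1266 UMIs, with 262 and 76.2 CPM against 17594 and 12374 in the endothelial-marked C19. The Lep level was 81.2 in C14 cells with markers of other cell types and 81.4 in those without in L1, and 67.6 and 88.5 in L2. Its receptor gene Lepr was at 1.23 and 0.903 in the same cells. Tnni2, a fast skeletal muscle troponin (chr7:142441808-142444410, plus strand), was at 90.3 and 70.8, and was concentrated in fewer cells, the top 1% holding 25.2% and 33.0% of its UMIs.

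The variation between C14 cells of 1 mouse was measured as the squared coefficient of variation in excess of that expected from Poisson counting, for 4879 genes. The median gene had an excess of 0.117 and 0.111, and the 2 mice ranked the genes alike (Spearman's rho = 0.598 across genes). The contraction genes varied as little as the median gene (list medians 0.118 and 0.0967 over 30 genes), as did the adhesion genes (0.130 and 0.108 over 15). Secreted ligands and binding proteins varied most among the lists of basal cell functions, with medians of 1.01 and 0.900 over 29 genes. Dissociation stress genes (0.447 and 0.474 over 20), transcription factors (0.379 and 0.399 over 12) and keratins (0.346 and 0.419 over 8) were intermediate.

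By this measure per gene, the median ligand gene thus varied more between cells than the median contraction gene. As shares of the UMIs of a cell, both summed lists varied between cells. From the 10th to the 90th percentile, the contraction genes took 6.28–15% of the UMIs in L1 and 5.86–13% in L2. The secreted ligands and binding proteins took 0.928–1.96% in L1 and 0.816–1.86% in L2. The monocyte chemokine Ccl2 had an excess of 14.3 and 10.0, the neutrophil chemokine Cxcl1 10.3 and 5.75, the ErbB ligand Hbegf 8.12 and 7.33, and Pthlh, the parathyroid hormone-like peptide that moves calcium in lactation, 6.94 and 9.69. Of these, Ccl2 was among the 15 most variable genes, which also held Ccl7 (18.4 and 19.9), Cck, which encodes cholecystokinin (8.70 and 9.31), the membrane protein gene Plet1 (13.6 and 21.4), the metabolic coactivator gene Ppargc1a (10.1 and 11.5) and the protease inhibitor gene Slpi (30.4 and 39.4). The top 1% of cells held 45.1% and 44.1% of the Ccl7 UMIs and 30.7% and 32.9% of those of Cck, against 3.79% and 3.87% of those of Acta2. Fabp4 (36.9 and 104) was of another kind, since 76.7% and 78.3% of its UMIs lay in the 11.1% and 9.44% of C14 cells that held markers of other cell types. The same held for Gm13889 (74.5% and 67.4%) and Crip1 (69.5% and 70.5%), also among the 15 most variable genes. Of the UMIs of Akap12, 46.4% and 44.8% lay in those cells, and of Tmem252 49.9% and 23.6%. The value for the lipid carrier gene Apod, 18.9 and 399, rested in L2 on its deepest cells and was 1.41 there without the 5% of cells with the most UMIs.

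**Figure D2:**
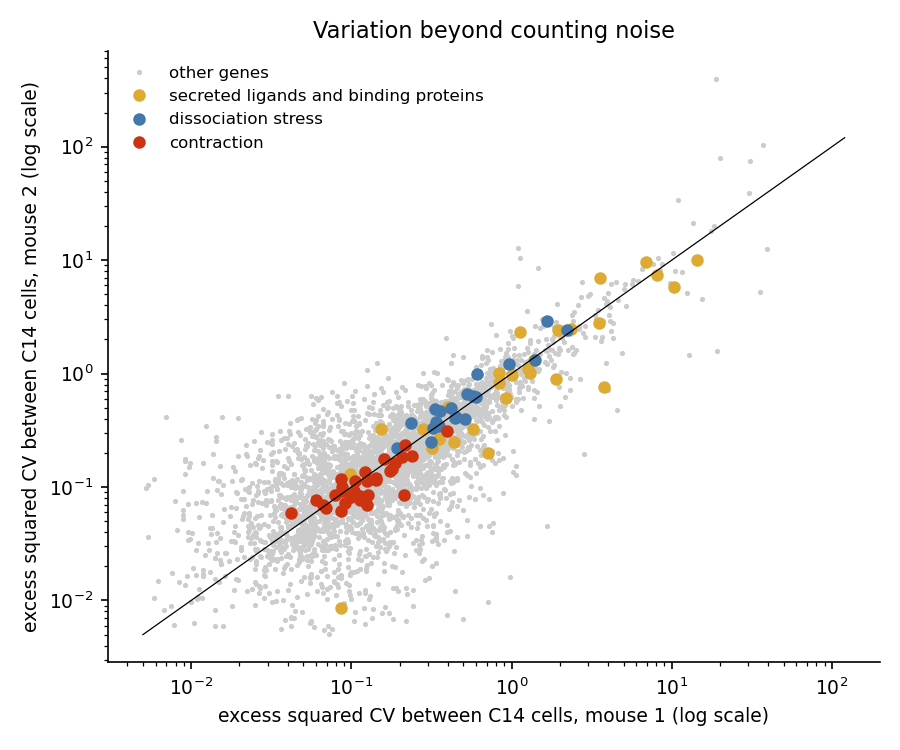
Excess squared coefficient of variation between C14 cells in mouse L1 (x axis) and L2 (y axis), both on log scales, 1 point per gene for 3632 of 4879 genes with values over 0.005 in both mice, with the line of identity. Contraction genes (red) lie low in both mice, with list medians of 0.118 and 0.0967, and ligands (yellow) reach highest among the coloured lists, with medians of 1.01 and 0.900.

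Within a mouse, the contraction genes rose and fell together from cell to cell. In the median cell they took 10.7% of the UMIs in L1 (10th to 90th percentile 6.28–15) and 9.14% in L2 (5.86–13). The genes whose normalised level correlated best with Acta2 across C14 cells were Tpm2 (Pearson's r = 0.81 and 0.77, and 0.67 and 0.57 after thinning), Tagln (0.75 and 0.69), Myl9 (0.71 and 0.65), Myl6, Actg2, Cnn1, Csrp1, S100a6, Tpm1 and Mylk (0.58 and 0.50). All but the calcium-binding protein gene S100a6 encode parts or regulators of the actin-myosin apparatus or the actin-binding protein Csrp1. At the other end stood Malat1 (-0.40 and -0.47), the ribosomal protein genes Rps19 (-0.35 and -0.29), Rps27, Rpl13, Rpl13a, Rps23 and Rps14, the translation-associated gene Tpt1, and the nuclear regulators Nrip1 (-0.26 and -0.24) and Runx1 (-0.27 and -0.24). These correlations are within 1 library each and share its depth, and a high share of some genes in a cell lowers that of the others by construction.

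The annotation also records an earlier round of clustering, in which C14 had been 2 groups that the authors then merged. The first group held 2572 C14 cells of L1 (55.5%, 54.0–56.9) and 958 of L2 (30.9%, 29.2–32.5). With 1 library a mouse, a difference between the mice and one between the libraries cannot be told apart. Its cells were deeper, with medians of 4261 against 3180 UMIs in L1 and 4952 against 3841 in L2. At 1.5-fold or more in both mice, 166 of 5303 genes were higher in the first group (3.13%) and 156 were lower (2.94%). The groups were drawn from these genes and their differences, too, are descriptions.

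The first group carried more of the heat shock and immediate early transcripts. Hspa1a, an inducible chaperone, was at 2281 against 444 in L1 and 2173 against 378 in L2, and its cofactor Dnajb1 at 2354 against 540 and 2368 against 511. Fos was at 11333 against 4923 and 11186 against 4189, and Jun at 6013 against 2639 and 6547 against 2699. Of 20 genes known to be induced by tissue dissociation, 11 were higher in the first group. The second group carried the metallothioneins, which bind zinc and copper, with Mt1 at 40114 against 17437 in L1 and 36162 against 17554 in L2, and Mt2 at 14389 against 4866 and 12739 against 4746. Also higher in the second group were the pattern recognition protein gene Ptx3 (477 against 162 and 318 against 126), the calcineurin inhibitor gene Rcan1 (391 against 134 and 502 against 201), the angiogenic factor Vegfa (134 against 66.3 and 128 against 65.2) and Wnt10a (104 against 48.7 and 125 against 63.0).

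The contraction genes were nearly level between the groups, with 2 of 32 at 1.5-fold or more (Des and Lmod1, both higher in the first) and a median of 0.03 and 0.05 on the log2 scale, beside 0.08 and 0.06 for all genes. Oxtr was 0.56 and 0.59 higher in the first group on that scale (848 against 575 and 857 against 570). Lep was higher in the first group too, at 96.9 against 56.4 and 124 against 63.7. The pericyte gene Rgs5 was higher in the first group by 2.87 and 2.85 on the log2 scale. Without the cells that held markers of other cell types, its ratio was 0.14 and -0.56. Rgs5 was itself among the markers that defined those cells, so leaving them out had to lower its difference, and nothing is concluded from it. Such cells made up 14.8% and 14% of the first group and 6.49% and 7.41% of the second. They were counted without thinning and were deeper than the rest, with medians of 6352 against 3490 UMIs in L1 and 9484 against 3915 in L2. The first group was deeper too, and the part of depth in these shares was not tested. Without the cells that held markers of other cell types, 156 genes were higher and 194 lower in the first group.

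**Figure D3:**
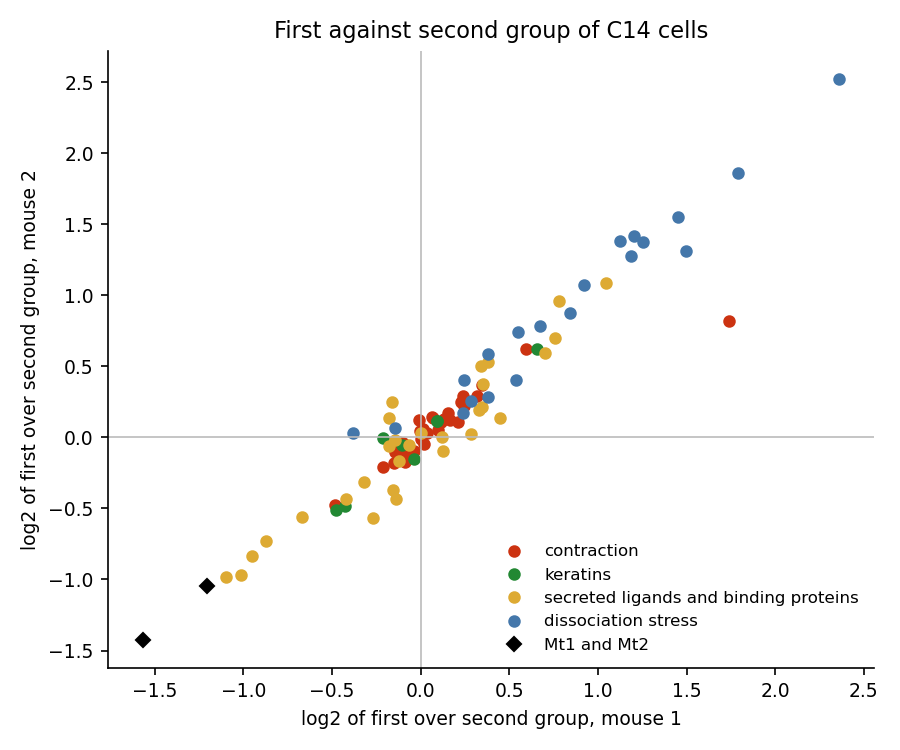
Log2 ratio of the level in the first over the second group of C14 cells in mouse L1 (x axis) and L2 (y axis), 1 point per gene for 4 lists and the metallothioneins Mt1 and Mt2 (black diamonds). Contraction genes (red) gather around 0, with medians of 0.03 and 0.05, dissociation stress genes (blue) lie mostly to the right of it in both mice, with medians of 0.76 and 0.83, and Mt1 and Mt2 lie below 0 in both.

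The question of how lactation changes the basal compartment was put to summed cells of each mouse. The cells of C12, C13 and C14 were summed, so that the sums did not depend on which of these clusters a cell fell in. C15, with 205 cells in L1 and 57 in L2, was left out, and basal cells in these comparisons means C12, C13 and C14. Lactation was compared with gestation and with the nulliparous gland by edgeR's quasi-likelihood test. Nearly all summed cells of L were C14 (4637 of 4639 in L1 and 3104 of 3105 in L2). Those of NP were C12 and those of G were C13 with few exceptions. Of 11654 genes tested, 3100 were higher in L than in G at an adjusted p under 0.05 (26.6%) and 3058 lower (26.2%), together 52.8%. Against NP, 3828 were higher (32.8%) and 3696 lower (31.7%), together 64.6%. Both comparisons share the L sums. Without TMM scaling the median of all genes moved from 0.03 to -0.10 against G and from 0.02 to -0.18 against NP, and the calls became 2540 higher and 3644 lower against G and 3168 higher and 4469 lower against NP. At such background shares a single call says little, and list medians and sizes are given beside the counts.

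Contraction genes were higher in lactation almost as a whole. Of 32 tested, 28 were higher and 2 lower than in G (median 1.14 on the log2 scale, against 0.03 for all genes), and 29 higher and 2 lower than in NP (median 1.97, against 0.02). Acta2 was at 26568 and 22784 CPM in L, 14205 and 10456 in G and 5568 and 5371 in NP. The stages did not overlap, and the fitted rises were 1.13 ± 0.14 (log2, SE, edgeR adjusted p = 7.6e-05) over G and 2.37 ± 0.15 (adjusted p = 2.7e-07) over NP. Mylk, at 6737 and 5656 in L, 2661 and 1816 in G and 425 and 473 in NP, rose by more, by 1.60 ± 0.17 and 3.98 ± 0.19. Tpm2 differed little between G (3379 and 2705) and NP (2826 and 2827) and stood at 14711 and 12598 in L.

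Steep rises were seen in regulators at low level before lactation. Ppp1r14a, the inhibitor of myosin phosphatase known as CPI-17, was at 761 and 601 in L, 98.8 and 58.8 in G and 6.58 and 10.9 in NP (edgeR adjusted p = 1.7e-06 and 6.3e-08). Synpo2, an actin-bundling protein of muscle, was at 510 and 458 in L, 45 and 28.3 in G and 9.87 and 13.2 in NP. Both genes followed the order NP, G, L without overlap. The 2 contraction genes lower than in G were Myh9, a non-muscle myosin heavy chain, which fell by 1.32 on the log2 scale against G and by 0.70 against NP, and Myh10, its paralog, lower by 0.50 against G (log2 change -0.50, adjusted p = 0.014), a call lost without G1 or without L1. The smooth muscle heavy chain Myh11 rose by 1.92 and 3.46 on the same scale.

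Transcripts of the oxytocin receptor rose, as did those of several genes that carry or limit its signal. Oxtr was at 743 and 672 in L, 74.7 and 61.7 in G and 52.2 and 72.4 in NP. G and NP overlapped, and L lay above both by 3.50 ± 0.17 (edgeR adjusted p = 2.1e-07) and 3.73 ± 0.18 (6.9e-08) on the log2 scale. Plcb1, a phospholipase that makes the calcium-releasing messenger IP3, rose by 2.91 ± 0.23 and 3.94 ± 0.26, and the calcium pump Atp2b4 by 2.98 ± 0.25 and 4.26 ± 0.31. Rgs2, a brake on Gq signalling, rose by 1.77 and 3.63, and Kcnmb1 and Kcnma1, the subunits of the calcium-activated potassium channel, by 1.20 and 1.59 over G and by 3.23 and 3.33 over NP. Not all members rose. The G protein gene Gnaq had a log2 change of -0.05 against G (adjusted p = 0.730) and rose by 1.10 over NP, and Atp2b1, another calcium pump, fell by 1.28 and by 0.90. In all, 16 of 31 genes of the list were higher and 5 lower than in G, and 19 higher and 5 lower than in NP. The list medians were 0.51 and 1.09 on the log2 scale.

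**Figure D4:**
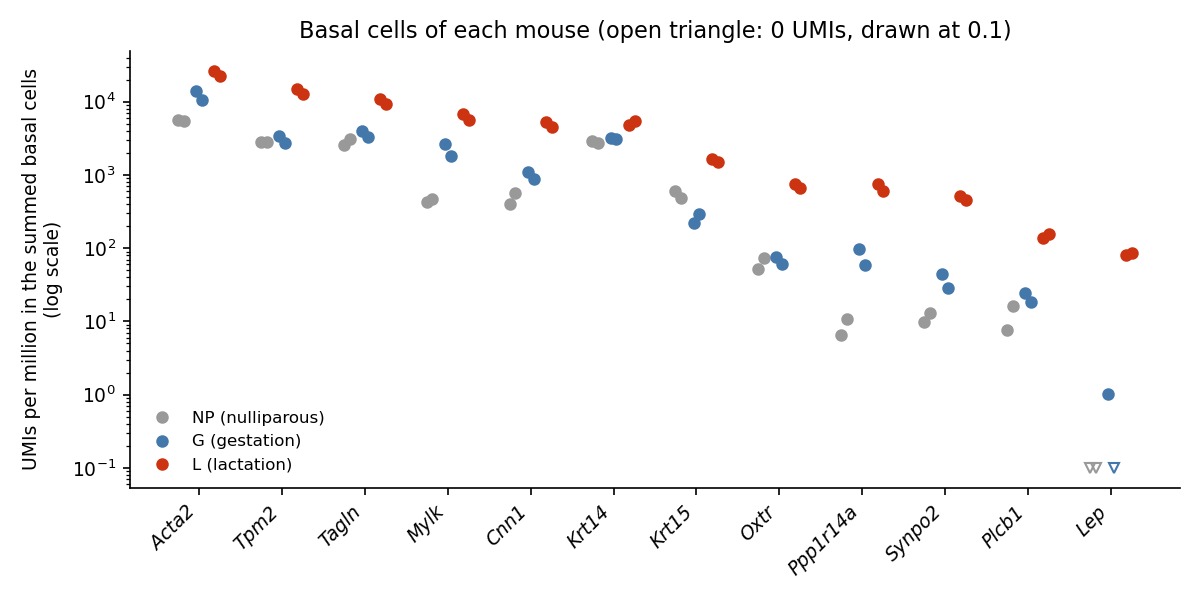
Levels of 12 genes in the summed basal cells of each mouse, in CPM on a log scale (y axis), with 1 point per mouse for NP (grey), G (blue) and L (red); open triangles are sums with 0 UMIs, drawn at 0.1. The L points lie above the G and NP points for all 12 genes, for Oxtr at 743 and 672 against 52.2 to 74.7 in the other 4 mice.

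Keratins changed in different ways. Krt15 was at 1641 and 1515 in L, 224 and 296 in G and 600 and 488 in NP, so that it was lowest in gestation and higher in lactation than at either stage (2.73 ± 0.15 and 1.73 ± 0.15, edgeR adjusted p = 4.2e-07 and 2.2e-06). Krt14 moved less, by 0.83 and 1.08. Krt7 and Krt19, keratins of simple epithelium, had log2 changes of 0.05 (edgeR adjusted p = 0.754) and 0.00 (adjusted p = 0.987) against NP, and rose by 4.04 and 3.58 over G, where Krt7 stood at 8.55 and 8.98 against 128 and 137 in L. Krt18 fell by 2.74 against NP, from 1864 and 1155 to 208 and 184. Of 13 luminal markers none was higher and 8 were lower than in NP (0% and 61.5%, beside 32.8% and 31.7% of all genes). Against G, 4 were higher and 5 lower (30.8% and 38.5%, beside 26.6% and 26.2%). The medians of the luminal markers were -1.81 against NP and 0.07 against G. Of 9 keratins, 7 were higher and none lower than in G (77.8% and 0%, beside 26.6% and 26.2% of all genes). Against NP, 3 were higher and 2 lower (33.3% and 22.2%, beside 32.8% and 31.7%). The keratin medians were 0.95 against G and 0.05 against NP. Epcam, the antigen of the sort, fell by 1.5 against G and by 2.96 against NP, and stood at 133 and 162 in L, 398 and 515 in G and 1526 and 1105 in NP.

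Basement membrane and matrix genes split between the comparisons. Of 29, 5 were higher and 14 lower than in G (median -0.37 on the log2 scale), while 17 were higher and 8 lower than in NP (median 0.75). Col4a1, a chain of basement membrane collagen, was at 313 and 341 in L, 1149 and 1121 in G and 216 and 318 in NP. It fell by 1.67 against G (edgeR adjusted p = 1.7e-05). Its small rise over NP (0.50, adjusted p = 0.023) was lost without TMM scaling (0.30, adjusted p = 0.111). The call was also lost with the PI mice added to the fit (0.50, adjusted p = 0.054). That rise was 0.22 without NP1 and 0.43 without L2. Lama1, a laminin chain, was at 55.3 and 48.7 in L and at 58.4 and 38.8 in G (0.23, adjusted p = 0.294), and rose by 3.50 over NP. Sparc likewise did not pass the test against G (0.19, adjusted p = 0.167) and rose by 1.53 over NP. Fbln2, a matrix protein of basement membranes, fell by 4.04 and by 2.88, and Col9a1, a collagen, fell by 6.05 against G, the largest fall of that comparison among genes that reached 20 CPM in both mice of a stage without overlap of the stages.

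Secreted factors changed in both directions. Of 37 ligands and binding proteins, 12 were higher and 11 lower than in G (32.4% and 29.7%, beside 26.6% and 26.2% of all genes), with a median of 0.00, and 19 were higher and 14 lower than in NP, with a median of 0.64. Igfbp5 was at 275 and 207 in L, 2854 and 2874 in G and 777 and 752 in NP, and Igfbp3 fell by 3.35 and by 3.64. Igfbp6, which prefers insulin-like growth factor 2, rose by 4.61 and 3.99 instead, from 11.8 and 7.85 in G to 265 and 171. The binding proteins of the same growth factors thus moved in opposite directions. Cxcl14 was at 9607 and 8460 in L, 1594 and 1996 in G and 3604 and 3883 in NP. Wnt6 rose by 1.61 and 4.45, and the Notch ligand Dll1 by 1.73 and 0.77, while another Notch ligand, Jag1, fell by 1.17 and by 1.62. Areg, the ErbB ligand of ductal growth, was at 0.804 and 0.541 in L, 22.6 and 37.0 in G and 248 and 376 in NP. Nrg1, another ErbB ligand, had a log2 change of -0.27 against G (adjusted p = 0.087) and rose by 1.55 over NP.

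Lep had 0 UMIs in both NP sums and in G2, 1.01 CPM in G1 and 81.3 and 85.0 in L, at least 178-fold above NP when NP is set to a floor of 3 UMIs over the group. In the few basal cells of PI (28 and 59 cells, not tested) it had 0 UMIs again. Tnni2 had 0 UMIs in both G sums, and stood in L at least 230-fold above the same floor. Csn1s2b was at 2.01 and 0.224 in G, where Csn2 was already at 633 and 352, and it had 0 UMIs in NP, at least 1261-fold below L. Csn2, in contrast, had a log2 change of -0.46 between L and G (edgeR adjusted p = 0.084). It passed the edgeR test without TMM scaling (-0.59, adjusted p = 0.029) and with no filter on low counts (-0.43, adjusted p = 0.0035). It also passed with the first group of C14 alone in L (-0.55, adjusted p = 0.031). Without G2 the change of Csn2 was -0.83. Among the caseins Csn1s2b had the largest rise between gestation and lactation in basal cells, by 9.23 ± 0.35 on the log2 scale (adjusted p = 1.5e-07), against 0.53 for Csn3 (adjusted p = 0.031). Wap rose by 7.15. Milk transcripts of the other cells of a library enter these sums, and their part in the result was not tested.

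Of 26 receptors, 10 were higher and 8 lower than in G (38.5% and 30.8%, beside 26.6% and 26.2% of all genes). Against NP, 10 were higher and 7 lower (38.5% and 26.9%, beside 32.8% and 31.7%). Their medians were 0.11 against G and 0.33 against NP on the log2 scale. Il6st, the signal chain shared by the receptors of the interleukin 6 family, rose by 1.62 over each stage, and its partner Lifr by 0.84 and 1.30. Socs3, a feedback inhibitor of the same pathway and a gene also induced by dissociation, was at 2447 and 2567 in L, 219 and 86.4 in G and 421 and 372 in NP. The prolactin receptor gene Prlr fell by 7.41 against NP, from 198 and 220 to 1.23 and 0.842, and was at 1.76 and 5.16 in G. The paper counts Prlr among the receptors high in hormone-sensing luminal cells. Their cluster C4 held 971 and 1212 cells in NP1 and NP2, and 1 in L2. Transcripts of luminal cells can enter the basal sums of NP. Their part in the falls of Prlr, Areg, Krt18 and Epcam was not tested. Of 20 transcription factors of the basal lineage, 8 were higher and 5 lower than in G (40% and 25%, beside 26.6% and 26.2% of all genes). Against NP, 12 of these factors were higher and 2 lower (60% and 10%, beside 32.8% and 31.7%). Their medians were 0.32 and 0.66. Id2, an inhibitor of basic helix-loop-helix factors, rose by 1.99 and 3.63 while its paralog Id4 fell by 1.22 and by 1.92, and Snai2 fell by 1.68 and by 0.72. Of 13 regulators and targets of serum response factor and YAP, 3 were higher and 3 lower than in G, and 9 higher and 1 lower than in NP. These were 23.1% each way against G, below the 26.6% and 26.2% of all genes. The medians were 0.09 against G and 0.54 against NP. Cell division genes were lower than in G in 19 of 20 cases (95%, beside 26.2% of all genes). Among them was the proliferation marker Mki67, at 2.13 and 1.32 in L and 52.1 and 36.6 in G. Against NP, 1 cell division gene was higher and 5 were lower (5% and 25%, beside 32.8% and 31.7%). The list medians were -3.40 and -0.16.

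Transcripts of dissociation stress moved with these changes. Of 20 such genes, 19 were higher in L than in G and 19 higher than in NP, with medians of 2.21 and 3.31 on the log2 scale, and the list summed to 41456 and 35022 CPM in L, 11877 and 7995 in G and 6896 and 6093 in NP. Fos was at 8875 and 6662 in L, 1423 and 626 in G and 560 and 449 in NP. The rise of these genes was of the size of that of the steeper contraction genes, and in the same mice the list was high in C11 as well, where only 2 of its 20 genes were at least 2-fold below C14 in both mice. In C9, 13 of the 20 were at least 2-fold below C14, by medians of 1.90 and 1.25 on the log2 scale beside 1.18 and 1.30 for all genes. The summed markers of pericytes were 269 and 155 in L and 66.5 to 71.1 in the other 4 sums, those of endothelial cells 92.9 and 39.3 against 15 to 41.5, and those of fibroblasts 825 and 628 against 944 and 721 in G and 222 and 308 in NP. Immune markers summed to 182 and 154 in L, 244 and 283 in G and 102 and 132 in NP. Basal cells of L were also shallower, with medians of 3701 and 4147 UMIs against 6046 to 6304 in NP and G. Without the C14 cells that held markers of other cell types, 3190 genes were higher and 3158 lower in L than in G, and 3831 higher and 3729 lower than in NP. The part of dissociation and of depth in the stage differences was not tested.

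**Figure D5:**
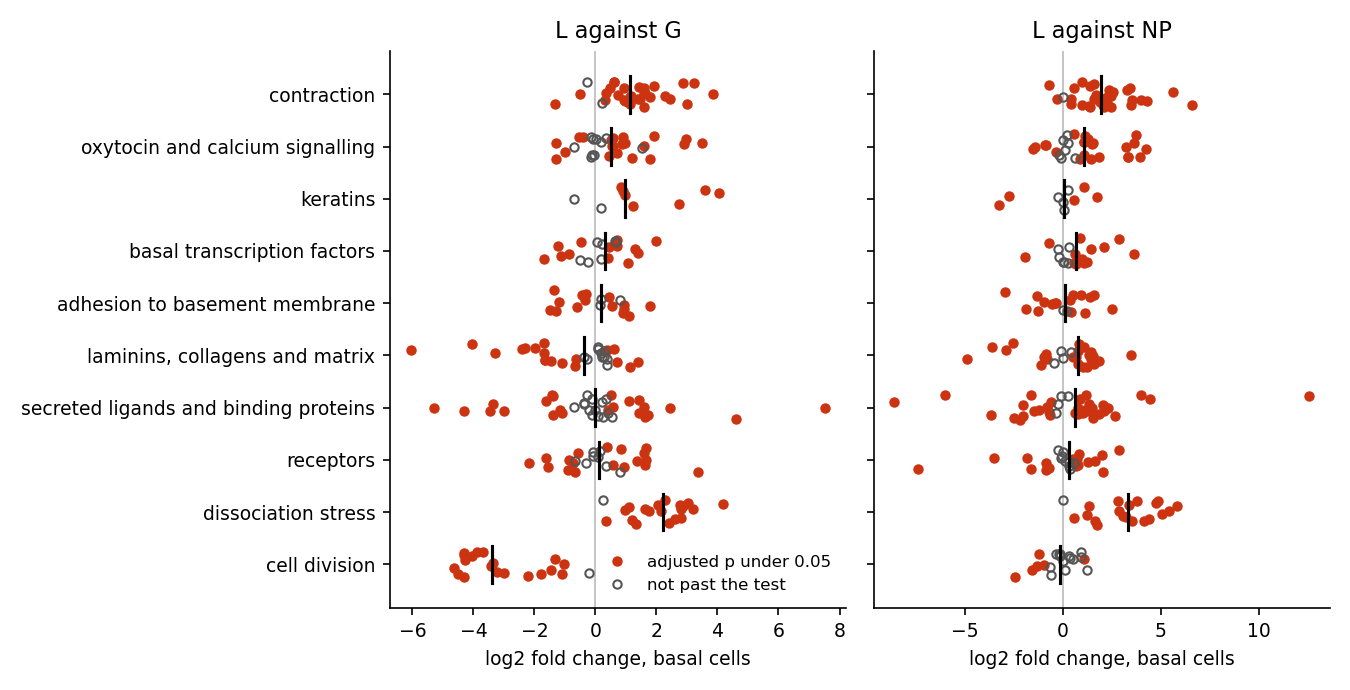
Log2 fold changes of the members of 10 gene lists in summed basal cells, L against G (left panel) and L against NP (right panel), 1 point per gene, filled red where the edgeR adjusted p was under 0.05 and open otherwise, with a black bar at the list median. Most contraction genes lie to the right of 0 in both panels, with medians of 1.14 and 1.97, as do dissociation stress genes, with medians of 2.21 and 3.31, while matrix genes have medians of -0.37 and 0.75.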

How the data were processed

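Libraries of 8 mice were made by 10x Chromium and counted with Cell Ranger against mm10, and the submitters' processing notes name STAR. The authors deposited UMI counts per gene and cell, and an annotation with the cluster of each cell and its fraction of mitochondrial UMIs. They had marked low-quality cells and set aside a cluster of putative doublets, C20, which enters no sum here, and no doublet caller was run. Of the barcodes of L1 and L2, 170 and 113 also occurred in another library, and 0 of these were among the cells that pass. All columns were used (0 left out).

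UMI counts were summed per mouse. Basal sums of NP, G and L (6 sums) were fitted together in edgeR 4.0.16 (R 4.3.3) by the quasi-likelihood test with TMM scaling, filterByExpr (minimum count 10, total 15) and Benjamini-Hochberg adjustment. Clusters were compared at 2-fold in both mice among genes at 20 CPM or more, and groups within C14 at 1.5-fold. Thinning used Python 3.11.15 and numpy 2.4.6. A cell was said to hold markers of other cell types at 3 or more UMIs of list genes whose C14 level was under 3% of that in their own cluster. The fits were tested on simulated data. DESeq2 1.42.0 was 1 of the alternatives.

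Named genes were list members at 20 CPM or more in both L mice or past the test, the 10 largest changes of each comparison, the 15 most variable genes, the 10 best and worst correlated with Acta2, and the 20 most abundant genes. The members and lists were chosen with earlier results of these data known. Other genes, the first and second groups of C14 and the comparisons of Csn1s2b, Lep and Tnni2 across clusters were chosen after their values were seen. With 2 mice against 2, an exact permutation test of a single value cannot go below p = 0.333, so none was run.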

Additional observations from a re-analysis of the deposited data

How the results depend on the processing

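Of 99 alternative counts and shares, 83 stayed within 1.5 times the value given above, or for shares within the interval, and 16 moved. With a test against a log2 change of 1 at an FDR of 0.01 (glmTreat), 447 genes were higher and 439 lower in L than in G, and 1173 higher and 889 lower than in NP. At 4-fold, 481 genes were higher and 301 lower in C14 than in C11, and 1248 higher and 190 lower than in C9. With no minimum level, 1998 were higher and 3005 lower than in C11, and 3161 lower than in C9. Milk protein genes left out of the totals gave 1437 higher and 838 lower than in C9, and TMM factors 1324 and 758. Among the cells of C1 to C15 alone, C14 made up 93.0%. DESeq2 called 2189 genes higher and 2605 lower than in G, and 3249 and 3246 against NP. Leaving out 1 mouse at a time gave 2110 to 3039 higher and 2251 to 2962 lower against G, 2908 to 3919 and 2773 to 3744 against NP, 1472 to 1527 and 833 to 929 against C11, 3080 to 3229 and 447 to 450 against C9, and 10 to 13 shared genes of the 15 most variable. The sum left alone in a stage is then assumed to vary like the others, and with 1 L mouse the cluster counts need 2-fold in that mouse only. Replicate numbers only name the mice: same-numbered sums deviated together with correlations of -0.01, 0.01 and 0.00. With the replicate number as a block, 3105 genes were higher and 3049 lower against G, and 3829 and 3682 against NP. Among the genes described in the stage comparisons, Csn3 aside, no call reversed its direction under these alternatives. The wider set of all list members and largest changes held some reversals. Without the C14 cells that held markers of other cell types, 3 calls reversed against G and 3 against NP. With the second group of C14 alone, 1 reversed against G and 3 against NP, and without NP1, 1 against NP. Csn1s2a did not pass the edgeR test against G (-0.10, adjusted p = 0.771), but passed it with 0.52 without G1 and with -0.54 without G2. Calls against G lost without 1 library were those of Actn1, Vcl, Myh10 and Prlr, and against NP those of Col4a1, Tpm4, Myh10, Ctgf and Stmn1. The cells of NP, G and L were taken from different animals in separate libraries, so that library and mouse cannot be told apart.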
